A study of Homo sapiens with 6 samples.

Results

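The genes described here belong to the ATF4 branch of the integrated stress response: its transcription factors, the stress genes it induces, the kinases and phosphatase subunit that set it, the enzymes of serine, glycine, proline and asparagine synthesis, and the transporters that bring amino acids into the cell. They were taken as a named list of 36 genes among the 58735 rows of each table, and all 36 were found by symbol, each in 1 row. The list holds 6 transcription factors, 6 stress effectors, 3 genes of eIF2 alpha control, 12 enzymes and 9 transporters. SKOV3 is an established human ovarian carcinoma line. In the TIPE2 group it received a lentivirus carrying human TIPE2 cDNA (TNFAIP8L2, a lipid-binding regulator of immune signalling), and in the Vector group the empty vector, with 3 libraries each. The protocol describes puromycin selection of the TIPE2 cells for stable expression and does not say whether Vector cells were selected. It names neither the promoter of the construct nor any single clone. Titles call the libraries biological replicates, with no word on separate infections or cultures; the p-values below speak of the spread among these libraries, which may be technical.

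When amino acids run short or the endoplasmic reticulum is overloaded, kinases such as GCN2 and PERK phosphorylate the translation factor eIF2 alpha. General protein synthesis then slows, while ATF4 mRNA is translated more efficiently through its upstream reading frames, so that ATF4 protein can increase with no change in its mRNA. ATF4, usually paired with a C/EBP family protein, binds C/EBP-ATF response elements and induces amino acid transporters, biosynthetic enzymes and its own feedback inhibitors. The deposited values are mRNA levels, and they hold no measurement of eIF2 alpha phosphorylation or of ATF4 protein.

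RefSeq promoter windows (GRCh38.p14, 250 bases before to 50 after each annotated start) were available for 30 of the 36 genes, in 47 windows because several genes have more than 1 start. NUPR1, PSPH, SHMT2, PYCR1, GPT2 and SLC7A11 had no entry. The element TGATGNAA, searched on both strands, occurred in windows of 9 of the 30 genes (9 of 47 windows), whereas 3.62% of all 35116 windows and 4.46% of all symbols hold it. The cAMP response element TGACGTCA, a palindrome that shares no full match with the first motif, occurred in 1 of the 30 genes, PPP1R15A, and in 1.85% of all windows. The 6 stretches that follow are those whose match lies wholly before the start. They are shown because they carry the letters that ATF4-type factors are known to recognise. The listed levels of their genes range here from very low to among the more abundant. Each is written 5′ to 3′ on the strand of its gene, with the matched element in capitals.
ASNS (chr7:97872439-97872506, minus strand): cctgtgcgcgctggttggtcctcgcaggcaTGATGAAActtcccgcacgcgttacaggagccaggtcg
GOT1 (chr10:99430785-99430852, minus strand): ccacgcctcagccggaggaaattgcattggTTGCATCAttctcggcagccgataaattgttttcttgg
CHAC1 (chr15:40953232-40953299, plus strand): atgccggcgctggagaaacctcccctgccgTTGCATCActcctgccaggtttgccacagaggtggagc
CEBPG (chr19:33374041-33374108, plus strand): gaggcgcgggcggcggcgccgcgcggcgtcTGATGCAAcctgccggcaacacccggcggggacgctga
SLC1A5 (chr19:46784874-46784941, minus strand): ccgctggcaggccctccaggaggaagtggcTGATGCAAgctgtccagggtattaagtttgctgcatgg
PPP1R15A (chr19:48872333-48872400, plus strand): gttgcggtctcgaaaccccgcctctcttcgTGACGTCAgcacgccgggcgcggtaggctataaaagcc

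In the ASNS window the element began at position -68, in CEBPG at -42, in SLC1A5 at -97, in GOT1 at -198, in CHAC1 at -209 and in PPP1R15A at -58, counted from the annotated start. The SLC1A5 and CEBPG matches belong to the start annotated farthest downstream of those in the table for these genes. In SLC1A4, SLC38A1, SLC7A1 and SLC3A2 the match reached or lay beyond the start. A match is a run of letters in the reference genome; binding was not measured.

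**Figure D1:**
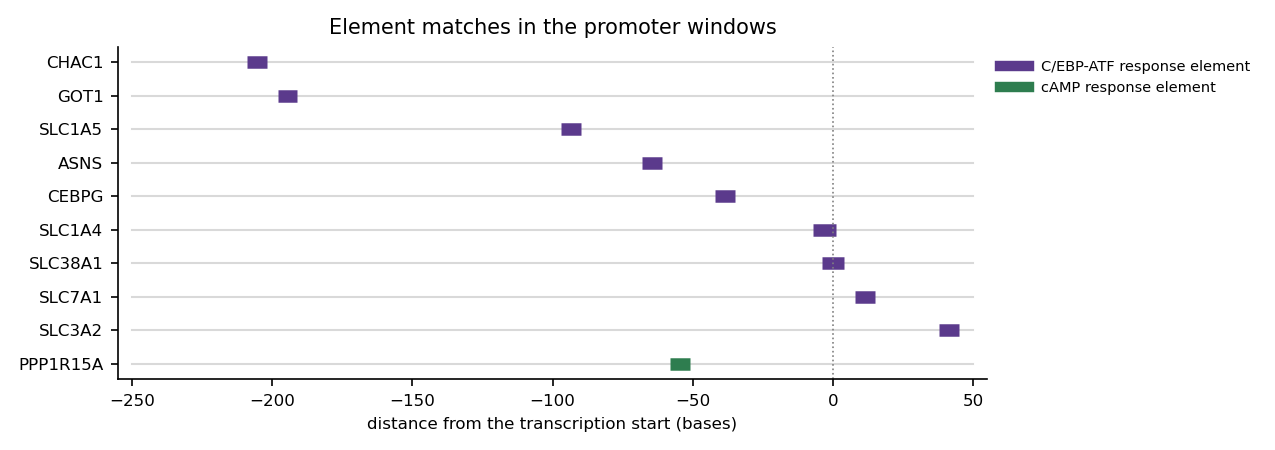
Position of each match to TGATGNAA (C/EBP-ATF response element, either strand) and TGACGTCA (cAMP response element) in bases from the annotated transcription start, for the 10 genes with a match. Grey lines span the window of 250 bases before to 50 after the start, and 6 of the 10 matches end before the start.

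Library depth ran from 15983317 to 18583473 fragments in genes. TNFAIP8L2 had 58.4, 47.2 and 48.8 FPKM (fragments normalised for exon length and library depth) in TIPE2 1, 2 and 3, against 0, 0.0476 and 0 FPKM in Vector 1, 2 and 3, as the labels say. Its log2 difference was 5.68 (standard error 0.11, adjusted p = 4.92e-07 by limma). An exact permutation test, two-sided, gave p = 0.1, which no design with 3 libraries a group can go below. Of the markers listed for an epithelial ovarian carcinoma line, KRT8, KRT18, KRT19 and ERBB2 were between 66.7 and 792 FPKM in every library. PAX8 was between 26.2 and 39.1 FPKM and EPCAM between 5.55 and 12.5 FPKM. MUC16, from the same list, was at most 0.0064 FPKM. By rank, Vector 1 and TIPE2 1 were most often extreme. Vector 1 was the highest or the lowest library in 59.5% of 12538 tested genes and TIPE2 1 in 44.1%, against 19.4% to 29.4% for the other libraries. By chi-square per degree of freedom between fragment counts, TIPE2 1 and TIPE2 2 were the closest pair within a group (6.59). TIPE2 3 was farther from TIPE2 1 and TIPE2 2 (39.6 and 28.0), and Vector 1 was farther from Vector 2 and Vector 3 (38.0 and 43.1).

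No listed gene passed the test for a difference between TIPE2 and Vector cells. A mean of 1 FPKM or more was required for testing, which 33 of the 36 genes and 12538 genes in all met. In the fit over all of these (limma on log2(FPKM + 1), Benjamini-Hochberg adjustment, threshold 0.05) none of the 33 passed, where 0.0239% of all tested genes did, 0.016% higher and 0.00798% lower in TIPE2 cells. The smallest adjusted p was 0.684. At an unadjusted p under 0.05 there were 2 of 33, DDIT4 and PPP1R15A, beside 5.99% of all tested genes; limma-voom on the recovered fragments gave 0 adjusted calls and 2 unadjusted. A lower mean in TIPE2 cells was seen for 24 of 33, beside 51.1% of all tested genes, and the median log2 difference was -0.10, beside -0.01 over all. That median was -0.20 without TIPE2 3, -0.21 without Vector 2 and -0.07 without TIPE2 1. The TIPE2 and Vector values did not overlap in 4 of 33 genes (12.1%), DDIT4 on the lower side and PPP1R15A, EIF2AK4 and SLC7A11 on the higher side. Over all tested genes that share was 11.5%, with 6.18% higher and 5.31% lower, so the count is near the background.

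**Figure D2:**
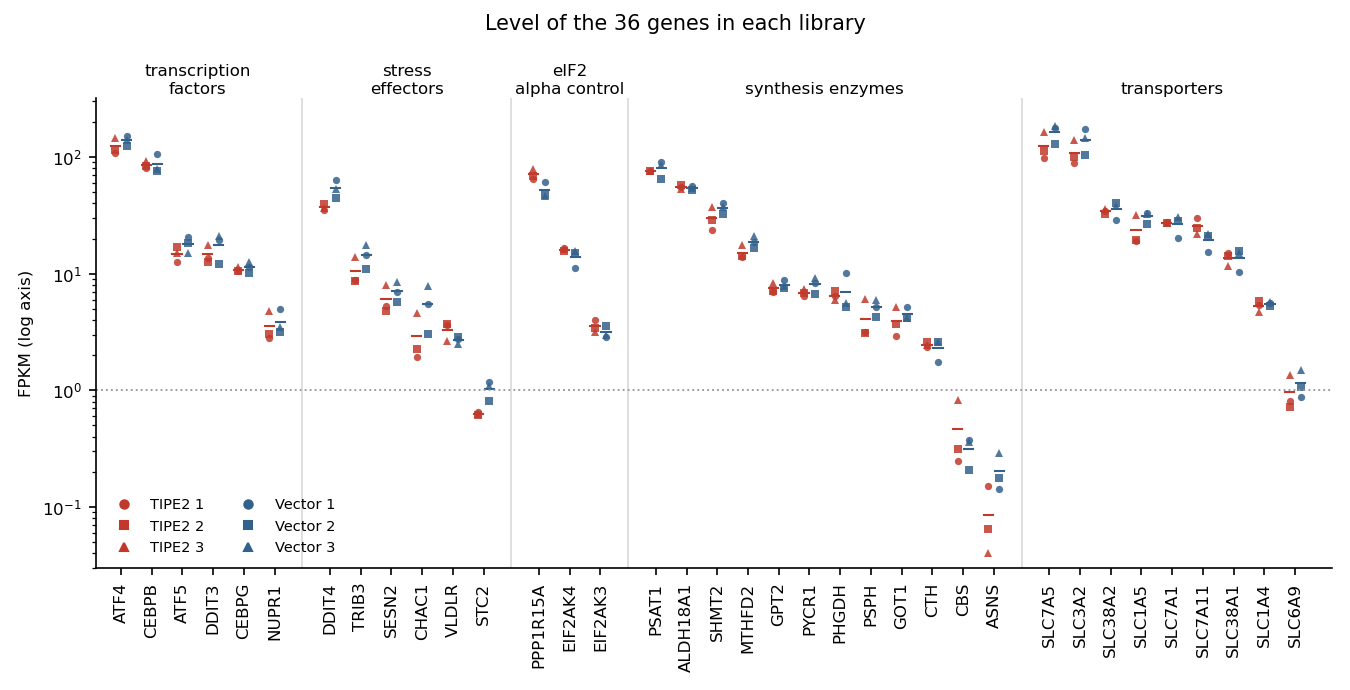
FPKM (log axis) of all 36 genes in each library, grouped by role and ordered by mean level; red symbols are TIPE2 1, 2 and 3, blue symbols Vector 1, 2 and 3, and short bars are group means. The dotted line marks 1 FPKM, the minimum mean for testing; ASNS, CBS and STC2 have means below it, and SLC7A5, ATF4 and SLC3A2 are the most abundant.

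The transcription factors had a median log2 difference of -0.14, which was -0.071 without TIPE2 1, -0.088 without TIPE2 2, -0.090 without Vector 1, -0.22 without Vector 2 and -0.28 without TIPE2 3. Their levels spanned from ATF4, at a mean of 131 FPKM over the 6 libraries, down to NUPR1 at 3.70 FPKM. ATF4 itself (ENSG00000128272; GRCh38 chromosome 22, 39519695 to 39522685, plus strand) had 108, 116 and 145 FPKM in TIPE2 1, 2 and 3, against 152, 125 and 140.0 FPKM in Vector 1, 2 and 3. TIPE2 1 and 2 were thus below every Vector library and TIPE2 3 lay within their range. The log2 difference was -0.18 (standard error 0.16, adjusted p = 0.848 by limma), and between -0.30 without TIPE2 3 and -0.095 without TIPE2 1. ATF5, a related factor that is also translated under stress, had 12.6, 16.9 and 15.02 FPKM in TIPE2 cells, against 20.6, 18.2 and 14.9 FPKM in Vector cells. The groups overlapped (log2 difference -0.25, standard error 0.15, adjusted p = 0.834 by limma). On the opposite strand, 21.2% of its exon bases are shared with exons of NUP62, which was at 14.9 to 16.5 FPKM.

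DDIT3 encodes CHOP, the C/EBP-like factor linked to death under prolonged stress. Its values were 13.5, 12.7 and 17.7 FPKM in TIPE2 cells, against 19.3, 12.02 and 21.0 FPKM in Vector cells. Both the lowest and the highest value came from Vector libraries, and the log2 difference was -0.22 (standard error 0.22, adjusted p = 0.852 by limma). The gene shares 27.2% of its exon bases with MARS on the opposite strand, whose levels were 13.2, 15.2 and 21.4 FPKM in TIPE2 cells and 18.2, 16.7 and 24.8 FPKM in Vector cells. Since strand-specific counting is not stated, reads from that stretch cannot be told apart. CEBPG, a dimer partner of ATF4 whose window carries the element shown above, had 10.5, 10.5 and 11.3 FPKM in TIPE2 cells against 11.3, 10.1 and 12.6 FPKM in Vector cells. Its groups overlapped (log2 difference -0.06, standard error 0.11, adjusted p = 0.902 by limma). CEBPB, a second partner, averaged 85.4 ± 6.54 FPKM with TIPE2 and 86.9 ± 16.8 FPKM in Vector cells. NUPR1, a small chromatin-associated stress protein, averaged 3.55 ± 1.07 FPKM with TIPE2 and 3.86 ± 0.941 FPKM in Vector cells (SD, n = 3 each). Its FPKM rests on 5674 bases of merged exons, so its level relative to other genes depends on which isoform is transcribed.

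Stress effectors are genes whose mRNA is induced downstream of ATF4 and CHOP. Their differences ran from -0.70 for CHAC1 to 0.21 for VLDLR. PPP1R15A, also induced by stress, was placed with eIF2 alpha control and had a difference of 0.45. Under that placing, stress effectors had the most negative median of any role group, -0.42 over the 5 tested. That median was -0.26 without Vector 3 and -0.59 without Vector 2. DDIT4 (ENSG00000168209; chromosome 10, 72273920 to 72276036, plus strand) encodes REDD1, an inhibitor of mTORC1. It had 35.1, 39.3 and 36.4 FPKM in TIPE2 1, 2 and 3, against 64.1, 44.4 and 53.3 FPKM in Vector 1, 2 and 3. All TIPE2 values lay below all Vector values, and the TIPE2 libraries were close to one another. The log2 difference was -0.52 (standard error 0.16, adjusted p = 0.684; unadjusted 0.0102 by limma). An antisense gene, DDIT4-AS1, covers 41.2% of its exon bases and was listed at 0 in every library.

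CHAC1 encodes a glutathione-degrading enzyme and is a sensitive readout of ATF4 activity. It had 1.92, 2.25 and 4.603 FPKM in TIPE2 cells, against 5.44, 3.03 and 7.88 FPKM in Vector cells. TIPE2 3 was above Vector 2, so the groups overlapped. The difference of -0.70 was the largest in size of the 33 tested genes, and it also had the largest standard error, 0.33 (limma, adjusted p = 0.834). It lay between -1.01 without Vector 2 and -0.44 without Vector 3. These values correspond to 76, 81 and 158 fragments in TIPE2 cells and 177, 111 and 265 fragments in Vector cells.

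TRIB3, a pseudokinase that feeds back on ATF4 and on AKT, had nearly the same order of libraries as CHAC1. It had 8.87, 8.73 and 14.0 FPKM in TIPE2 cells, against 14.4, 10.9 and 17.7 FPKM in Vector cells (log2 difference -0.42, standard error 0.22, adjusted p = 0.834 by limma). SESN2, a leucine sensor and stress-induced mTORC1 inhibitor, averaged 6.02 ± 1.72 FPKM with TIPE2 and 7.04 ± 1.37 FPKM in Vector cells (SD, n = 3 each), again with TIPE2 1 and 2 lowest. STC2, a secreted glycoprotein hormone, was below the minimum for testing, with 0.654, 0.616 and 0.626 FPKM in TIPE2 cells against 1.19, 0.806 and 1.08 FPKM in Vector cells. Its groups did not overlap, on 64 to 77 fragments in TIPE2 libraries and 88 to 115 in Vector libraries. With no filter on low values its log2 difference was -0.31 (standard error 0.16, unadjusted p = 0.121 by limma). VLDLR, a lipoprotein receptor that is induced by ATF4 in several settings, had a positive difference, with 3.60, 3.74 and 2.63 FPKM in TIPE2 cells against 2.74, 2.86 and 2.52 FPKM in Vector cells. TIPE2 1 and 2 were the highest, and TIPE2 3 lay among the Vector values (log2 difference 0.21, standard error 0.13, adjusted p = 0.834 by limma).

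**Figure D3:**
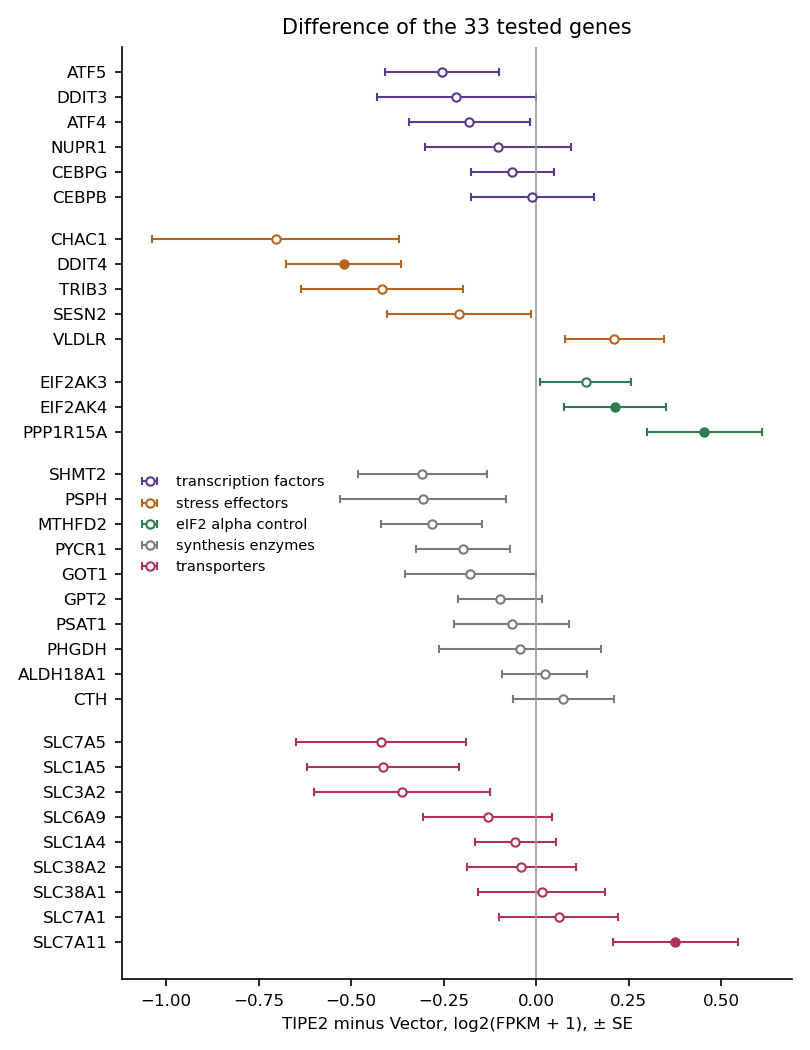
Log2 difference of TIPE2 minus Vector (points, on the log2(FPKM + 1) scale) with its standard error (bars) for the 33 tested genes, by role. Filled points mark the 4 genes whose groups did not overlap, DDIT4, EIF2AK4, PPP1R15A and SLC7A11; differences run from -0.70 for CHAC1 to 0.45 for PPP1R15A and none passed the test.

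The genes of eIF2 alpha control had positive differences in all 3 cases, with a median of 0.21. That median was 0.09 without Vector 1 and 0.30 without Vector 3. PPP1R15A (ENSG00000087074; chromosome 19, 48872392 to 48876057, plus strand) encodes GADD34, the stress-induced subunit that directs protein phosphatase to eIF2 alpha and so ends the response. It had 64.7, 68.4 and 79.7 FPKM in TIPE2 1, 2 and 3, against 61.0, 47.6 and 46.6 FPKM in Vector 1, 2 and 3. All TIPE2 values lay above all Vector values, TIPE2 1 and Vector 1 being the closest, and the log2 difference was 0.45 (standard error 0.16, adjusted p = 0.775; unadjusted 0.0195 by limma). The ratio of PPP1R15A to ATF4 in FPKM was 0.597, 0.591 and 0.549 in TIPE2 cells, against 0.402, 0.380 and 0.333 in Vector cells. This ratio was chosen after the values were seen and was not tested.

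EIF2AK4 encodes GCN2, the kinase that senses uncharged tRNA. It had 16.44, 15.63 and 16.24 FPKM in TIPE2 cells, against 11.12, 14.95 and 15.61 FPKM in Vector cells. The groups did not overlap, although TIPE2 2 and Vector 3 nearly met, and Vector 1 was the low library. The log2 difference was 0.21 (standard error 0.14, adjusted p = 0.841 by limma), and 0.07 without Vector 1. EIF2AK3, which encodes the endoplasmic reticulum kinase PERK, had 4.03, 3.45 and 3.16 FPKM in TIPE2 cells, against 2.88, 3.55 and 3.00 FPKM in Vector cells. Those groups overlapped (log2 difference 0.13, standard error 0.12, adjusted p = 0.848 by limma).

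The synthesis enzymes had a median difference of -0.14 over the 10 tested, with 8 of 10 negative. Leaving out TIPE2 1 gave -0.063, leaving out Vector 1 gave -0.075, and leaving out Vector 2 gave -0.21. In the serine pathway the enzymes of the 3 steps had different levels per length. PHGDH, the first enzyme, averaged 6.49 ± 0.586 FPKM with TIPE2 and 6.997 ± 2.78 FPKM in Vector cells, and its Vector mean rested on Vector 1, at 10.2 FPKM, where the other Vector libraries had 5.20 and 5.59 FPKM. PSAT1, the second enzyme, was higher per length in every library, at 75.6 ± 0.357 FPKM with TIPE2 and 80.0 ± 13.4 FPKM in Vector cells (SD, n = 3 each). The ratio of PSAT1 to PHGDH was 11.8, 10.6 and 12.7 in TIPE2 cells and 8.80, 12.4 and 15.3 in Vector cells. The merged exons of PHGDH come to 9217 bases and those of PSAT1 to 2188, so the ratio depends on how well those models match the transcripts made. PSPH, the phosphatase of the last step, had 3.17, 3.09 and 6.06 FPKM in TIPE2 cells, against 5.18, 4.24 and 6.004 FPKM in Vector cells. TIPE2 3 was the highest and the other TIPE2 libraries were the lowest (log2 difference -0.31, standard error 0.22, adjusted p = 0.842 by limma).

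SHMT2 and MTHFD2, the mitochondrial enzymes that carry the serine carbon into the folate pool, both had TIPE2 1 and 2 as the lowest libraries. SHMT2 had 23.9, 28.6 and 37.2 FPKM in TIPE2 cells, against 40.0, 32.8 and 37.4 FPKM in Vector cells (log2 difference -0.31, standard error 0.17, adjusted p = 0.834 by limma). MTHFD2 had 13.8, 14.1 and 17.5 FPKM in TIPE2 cells, against 18.5, 16.5 and 20.9 FPKM in Vector cells (log2 difference -0.28, standard error 0.14, adjusted p = 0.834 by limma). In both, TIPE2 1 and 2 lay below every Vector library, while TIPE2 3 lay within the Vector range. Genes on the opposite strand share 33.2% of the exon bases of MTHFD2, 15.6% of those of PYCR1 and 19.3% of those of GOT1. PYCR1, which completes proline synthesis, had 6.49, 6.80 and 7.35 FPKM in TIPE2 cells, against 8.36, 6.75 and 9.16 FPKM in Vector cells, and overlapped through Vector 2 (log2 difference -0.20, standard error 0.13, adjusted p = 0.841 by limma). ALDH18A1, which starts proline synthesis from glutamate, was nearly level, at 55.1 ± 1.85 FPKM with TIPE2 and 54.3 ± 2.39 FPKM in Vector cells.

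Among the transaminases, GPT2 averaged 7.47 ± 0.737 FPKM with TIPE2 and 8.05 ± 0.637 FPKM in Vector cells. GOT1, whose window carries the element, averaged 3.94 ± 1.17 FPKM with TIPE2 and 4.51 ± 0.555 FPKM in Vector cells. CTH, which makes cysteine from cystathionine, averaged 2.46 ± 0.116 FPKM with TIPE2 and 2.32 ± 0.484 FPKM in Vector cells (SD, n = 3 each). CBS, the step before it, was below the minimum for testing, with 0.245, 0.312 and 0.830 FPKM in TIPE2 cells against 0.373, 0.207 and 0.361 FPKM in Vector cells. Its near-identical copy CBSL was listed at 0.406 to 1.38 FPKM, and how shared reads were divided is not stated, so CBS is uncertain. The sum of both rows was 1.56, 0.783 and 1.55 FPKM in TIPE2 cells, against 1.75, 0.613 and 0.773 FPKM in Vector cells, with overlapping groups.

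ASNS (ENSG00000070669; chromosome 7, 97852118 to 97872542, minus strand), asparagine synthetase, was close to 0 in both groups; in other cells it is among the best known ATF4 targets. It had 0.152, 0.0642 and 0.0404 FPKM in TIPE2 1, 2 and 3, against 0.142, 0.176 and 0.288 FPKM in Vector 1, 2 and 3. These are 13, 5 and 3 fragments in TIPE2 libraries and 10, 14 and 21 fragments in Vector libraries. With no filter on low values the log2 difference was -0.15 (standard error 0.10, unadjusted p = 0.209 by limma). A gene on the same strand, AC079781.5, shares 44.6% of the exon bases of ASNS, and it was listed at 0.118 to 0.386 FPKM. The pseudogene ASNSP1 was listed at 0.0551 to 0.201 FPKM. How reads in exons shared by overlapping genes were counted is not stated. Loss of such reads, or of reads that map to several places, was not tested.

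Transporters had a median difference of -0.06, with 6 of 9 negative, and SLC7A11 was the most positive of them. The median was -0.18 without Vector 1, -0.029 without TIPE2 3 and -0.017 without Vector 3. SLC7A5 (LAT1, an exchanger of large neutral amino acids) was the most abundant gene of the list, at a mean of 144 FPKM. It had 97.2, 112 and 163 FPKM in TIPE2 1, 2 and 3, against 177, 130.2 and 186 FPKM in Vector 1, 2 and 3. TIPE2 1 and 2 were lowest and TIPE2 3 lay between Vector 2 and Vector 1 (log2 difference -0.42, standard error 0.23, adjusted p = 0.834 by limma). SLC3A2, the heavy chain that SLC7A5 and SLC7A11 both need to reach the membrane, had 88.9, 99.3 and 139 FPKM in TIPE2 cells, against 173, 105 and 144 FPKM in Vector cells. It kept the order of SLC7A5 except that Vector 1 was highest (log2 difference -0.36, standard error 0.24, adjusted p = 0.842 by limma). The ratio of SLC7A5 to SLC3A2 in FPKM lay between 1.02 and 1.29 in every library. A pseudogene of the light chain, SLC7A5P1, was listed at 2.13 to 5.58 FPKM, and how reads were shared with it is not stated.

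SLC1A5 (ASCT2, a glutamine and neutral amino acid exchanger) had 19.0, 19.6 and 31.9 FPKM in TIPE2 cells, against 33.4, 26.8 and 32.5 FPKM in Vector cells. TIPE2 3 was within the Vector range and the other TIPE2 libraries were below it; 23.8% of its exon bases are shared with genes on the opposite strand (log2 difference -0.41, standard error 0.20, adjusted p = 0.834 by limma). SLC7A11 (ENSG00000151012; chromosome 4, 138164097 to 138242349, minus strand), the light chain of the cystine and glutamate exchanger, stood on the other side of zero. It had 29.8, 24.4 and 22.0 FPKM in TIPE2 1, 2 and 3, against 15.4, 21.1 and 21.7 FPKM in Vector 1, 2 and 3. All TIPE2 values were above all Vector values, TIPE2 3 and Vector 3 nearly meeting. The log2 difference was 0.38 (standard error 0.17, adjusted p = 0.834 by limma), and 0.22 without Vector 1. The ratio of SLC7A11 to SLC7A5 was 0.307, 0.217 and 0.135 in TIPE2 cells, against 0.0870, 0.162 and 0.117 in Vector cells, and overlapped.

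The remaining transporters had differences nearer to 0. SLC7A1, a carrier of cationic amino acids, averaged 27.3 ± 0.0944 FPKM with TIPE2 and 26.6 ± 5.54 FPKM in Vector cells. SLC38A1 and SLC38A2, sodium-coupled glutamine carriers, averaged 13.7 ± 1.77 and 34.3 ± 1.76 FPKM in TIPE2 cells, against 13.7 ± 2.89 and 35.6 ± 5.91 FPKM in Vector cells. In SLC7A1, SLC38A1 and SLC38A2 the lowest library was Vector 1, the library that was most often the highest or lowest over all tested genes. SLC1A4, a serine and alanine carrier, averaged 5.30 ± 0.574 FPKM with TIPE2 and 5.53 ± 0.215 FPKM in Vector cells. The glycine carrier SLC6A9 was near the minimum for testing, with 0.966 ± 0.344 FPKM with TIPE2 and 1.15 ± 0.326 FPKM in Vector cells (SD, n = 3 throughout).

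Libraries of the same group differed from one another across the list. TIPE2 1 and TIPE2 2 were the lowest pair of libraries in 14 of 33 genes (42.4%), beside 16.5% of all tested genes. These 14 were ATF4, NUPR1, TRIB3, CHAC1, SESN2, PSPH, SHMT2, MTHFD2, GPT2, GOT1, SLC7A5, SLC3A2, SLC1A5 and SLC6A9. TIPE2 3 lay within the range of the Vector libraries in 26 of 33 genes, beside 60.9% of all tested genes. It lay above that range in EIF2AK4, PPP1R15A, PSPH, GOT1 and SLC7A11 and below it in DDIT4 and SLC1A4. Relative to the mean of the 6 libraries, the median log2 deviation of the 33 genes stood at -0.16, -0.11 and 0.09 in TIPE2 1, 2 and 3, against 0.16, -0.06 and 0.14 in Vector 1, 2 and 3. Genes of the list move in common from library to library, so these counts do not stand for 33 independent observations. The pair TIPE2 1 and TIPE2 2 and the low direction were picked after the values were seen, and neither count was tested. These 2 libraries were also the closest pair within a group (chi-square per degree of freedom 6.59).

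**Figure D4:**
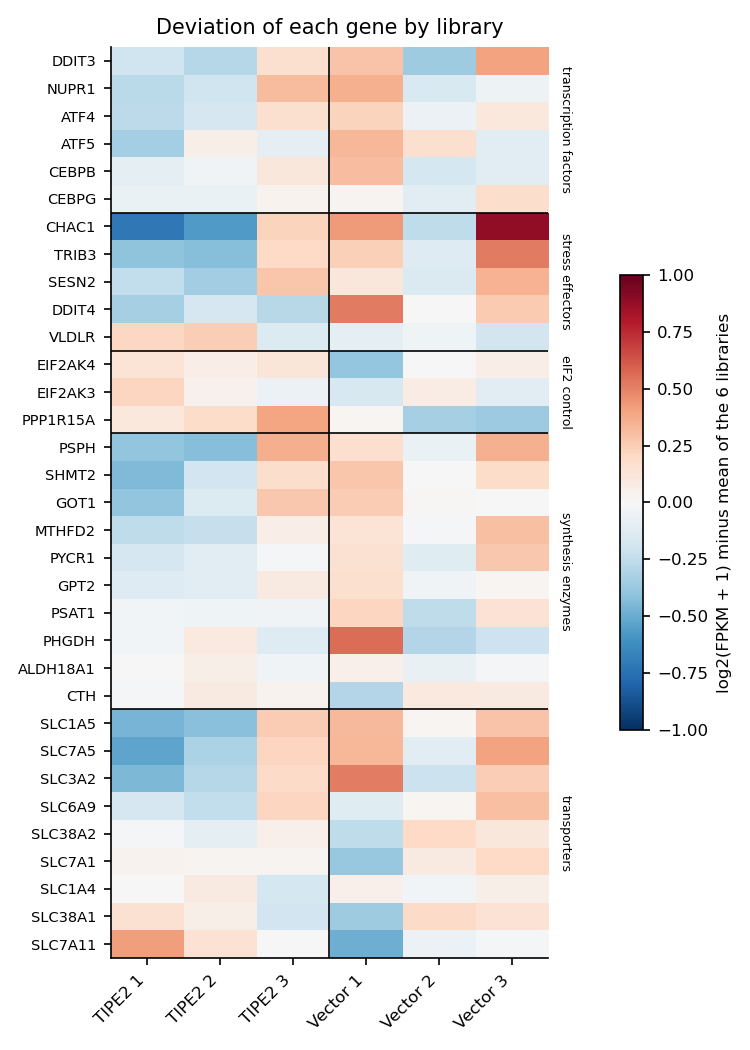
Deviation of each of the 33 tested genes from its mean over the 6 libraries, on the log2(FPKM + 1) scale (blue lower, red higher), with TIPE2 1 to 3 left of Vector 1 to 3 and genes grouped by role. TIPE2 1 and TIPE2 2 are the lowest pair in 14 genes, CHAC1, TRIB3, SLC7A5 and SLC1A5 among them, and TIPE2 3 is not.

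Genes listed as markers of other cell types were also unequal between these libraries. The summed level of 4 fibroblast markers was 5.35, 4.19 and 0.945 FPKM in TIPE2 1, 2 and 3, against 1.28, 2.03 and 0.617 FPKM in Vector 1, 2 and 3. COL1A1, the one gene of the 4 above the minimum for testing, had 3.36, 2.60 and 0.720 FPKM in TIPE2 cells, against 0.593, 1.54 and 0.405 FPKM in Vector cells, while DCN was at most 0.0810 FPKM. Of 3 endothelial markers CDH5 was listed at 0 in every library, and the sum was 0.939, 0.765 and 0.238 FPKM in TIPE2 cells and 0.210, 0.210 and 0.103 FPKM in Vector cells. PECAM1 made up nearly all of that sum, as VWF was at most 0.00609 FPKM. Of 4 leukocyte markers CD3E was listed at 0 in every library, and the sum was at most 0.271 FPKM. Their part in the results was not tested. The labels name SKOV3 as the cell line. In bulk RNA, transcription of these genes in SKOV3 cells and the presence of other cells cannot be told apart.

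Other genes of the same biology were read from lists of 122 genes in 8 groups, of which 101 were tested. None passed over all genes (limma), and 1 of 101, CASTOR2, had an unadjusted p under 0.05, beside 5.99% of all tested genes. The groups did not overlap in 5 of 101 (4.95%), beside 11.5% of all tested genes. Cytosolic tRNA synthetases, many of which are ATF4 targets, had a median log2 difference of -0.16, and 15 of 20 had a lower mean in TIPE2 cells. The median was -0.052 without Vector 3, -0.057 without TIPE2 1, -0.097 without TIPE2 2 and -0.31 without TIPE2 3. TIPE2 1 and 2 were the lowest pair in 11 of the 20 (55%), beside 16.5% of all tested genes. Over the 8 groups together that share was 24.8%, with 38.5% in the eIF2 machinery and 0% in other amino acid transporters. The median deviation of the tRNA synthetases was -0.21, -0.15 and 0.18 in TIPE2 1, 2 and 3, against 0.04, -0.08 and 0.18 in Vector 1, 2 and 3. In the eIF2 machinery TIPE2 1 and 2 also had the lowest medians (-0.20 and -0.06). The same held for glutamine, aspartate, proline and branched-chain genes (-0.08 and -0.07). DARS, the aspartyl enzyme, averaged 23.1 ± 2.95 FPKM with TIPE2 and 27.4 ± 2.62 FPKM in Vector cells, and GARS, the glycyl enzyme, 15.98 ± 2.40 FPKM with TIPE2 against 19.0 ± 1.59 FPKM with Vector. TARS, the threonyl enzyme, averaged 27.8 ± 3.92 FPKM with TIPE2 and 32.0 ± 3.03 FPKM in Vector cells (SD, n = 3 each).

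Genes of the unfolded protein response outside ATF4 had a median of 0.03 over 16 tested, with 5 negative. SDF2L1, a chaperone cofactor, had 16.3, 18.8 and 39.4 FPKM in TIPE2 cells, against 44.1, 26.2 and 29.2 FPKM in Vector cells. HSPA5, the chaperone BiP, was picked after its values were seen. It had 166, 182 and 391 FPKM in TIPE2 cells, against 213, 174 and 303 FPKM in Vector cells, with TIPE2 3 and Vector 3 the highest. Neither passed, with adjusted p of 0.842 for SDF2L1 and 0.988 for HSPA5 (limma). DNAJC3, an inhibitor of PERK, averaged 9.10 ± 0.85 FPKM with TIPE2 and 7.87 ± 1.29 FPKM in Vector cells. The transcription factor XBP1 averaged 33.8 ± 4.64 FPKM with TIPE2 against 37.4 ± 3.25 FPKM with Vector.

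**Figure D5:**
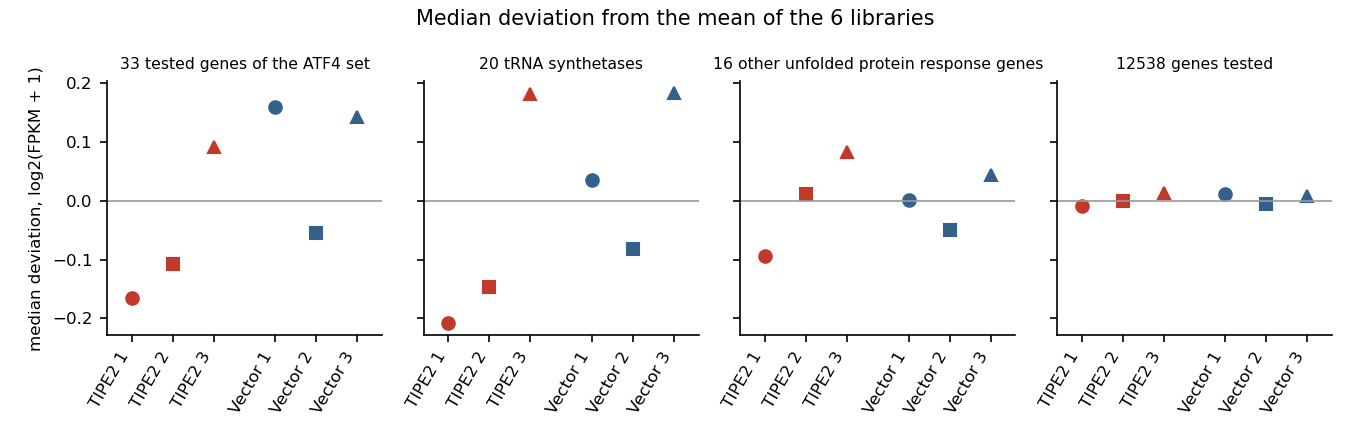
Median deviation by library, on the log2(FPKM + 1) scale relative to the mean of the 6 libraries, for the 33 tested genes of the list, 20 tRNA synthetases, 16 other unfolded protein response genes and all 12538 tested genes; red is TIPE2 and blue is Vector. The first and second panels both place TIPE2 1 and TIPE2 2 lowest, whereas the medians of all genes lie between -0.01 and 0.01.

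The eIF2 machinery had a median of -0.08 over 13 tested genes. EIF4EBP1, a translation repressor and ATF4 target, averaged 71.0 ± 17.7 FPKM with TIPE2 and 94.2 ± 21.8 FPKM in Vector cells. EIF2S2, the beta subunit of eIF2, averaged 50.9 ± 10.1 FPKM with TIPE2 and 61.9 ± 4.94 FPKM in Vector cells. An exchange factor subunit, EIF2B4, averaged 9.94 ± 1.45 FPKM with TIPE2 against 12.1 ± 1.75 FPKM with Vector. One-carbon and glycine genes had a median of -0.08 over 8 tested. The mitochondrial folate enzyme MTHFD1L averaged 14.1 ± 2.26 FPKM with TIPE2 and 17.5 ± 1.95 FPKM in Vector cells. Its cytosolic relative MTHFD1 averaged 9.54 ± 1.13 FPKM with TIPE2 and 10.8 ± 1.43 FPKM in Vector cells (SD, n = 3 each).

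Other amino acid transporters had a median of 0.05 over the 9 tested of 20 listed. The taurine carrier SLC6A6 had 3.19, 3.17 and 3.33 FPKM in TIPE2 cells, against 1.49, 2.83 and 2.68 FPKM in Vector cells, with no overlap (log2 difference 0.37, adjusted p = 0.834 by limma). SLC36A1, a lysosomal proton-coupled carrier, averaged 2.66 ± 0.691 FPKM with TIPE2 and 1.75 ± 0.652 FPKM in Vector cells. SLC1A1, a glutamate carrier, averaged 3.00 ± 0.344 FPKM with TIPE2 against 2.61 ± 0.384 FPKM with Vector. Genes of sulfur amino acids and glutathione had a median of 0.03 over 9 tested. Methionine synthase MTR averaged 4.75 ± 0.399 FPKM with TIPE2 and 3.84 ± 1.02 FPKM in Vector cells. CHAC2, the constitutive relative of CHAC1, averaged 5.57 ± 0.525 FPKM with TIPE2 and 6.72 ± 1.41 FPKM in Vector cells, and GCLM 9.37 ± 2.21 FPKM with TIPE2 against 10.6 ± 0.394 FPKM with Vector.

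Genes of glutamine, aspartate, proline and branched-chain metabolism had a median of -0.03 over 11 tested, and glutamine synthetase GLUL averaged 5.46 ± 0.131 FPKM with TIPE2 and 4.92 ± 0.562 FPKM in Vector cells. GOT2, the mitochondrial counterpart of GOT1, averaged 35.8 ± 5.21 FPKM with TIPE2 and 38.0 ± 5.51 FPKM in Vector cells, and ASL of the urea cycle 5.35 ± 1.15 FPKM with TIPE2 against 5.66 ± 0.547 FPKM with Vector. Amino acid sensing upstream of mTORC1 had a median of -0.03 over 15 tested. CASTOR2, a relative of the arginine sensor CASTOR1, had 6.65, 5.08 and 4.57 FPKM in TIPE2 cells, against 3.39, 3.70 and 3.77 FPKM in Vector cells. Every TIPE2 library was above every Vector library, and the log2 difference was 0.46 (standard error 0.14, adjusted p = 0.677 by limma). The GTPase RRAGD had 8.59, 7.85 and 9.15 FPKM in TIPE2 cells, against 10.5, 9.93 and 9.78 FPKM in Vector cells, also with no overlap (log2 difference -0.22, adjusted p = 0.834 by limma). BMT2, which encodes the methionine sensor SAMTOR, averaged 2.71 ± 0.605 FPKM with TIPE2 and 2.09 ± 0.176 FPKM in Vector cells (SD, n = 3 throughout).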

How the data were processed

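RNA sequencing of 6 SKOV3 libraries was analysed, 3 TIPE2 and 3 Vector, grouped by title. For each library the authors deposited a table of FPKM for 58735 human Ensembl identifiers. CASAVA 1.7, Bowtie and, although it is a mouse build, mm8 are listed per the submitters' processing notes. The identifiers are all in GENCODE 29 (GRCh38), whose positions and symbols are used here. Neither the counter nor its use of strand is stated in the sources used here. FPKM times merged exon length and a denominator per library (96.3% to 103% of assigned fragments) came out whole, within 0.01, for 100% of values above 0. No source used here names molecular identifiers, so fragments are not counted as independent molecules.

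limma 3.58.1 (R 4.3.3; trend, robust) was fitted to log2(FPKM + 1) for the 12538 genes whose mean reached 1 FPKM, with no covariate. The steps were tested on simulated data in which genes varied independently and changes were larger than those of the listed genes. That test does not show whether differences of the size seen here could be found. No 2 libraries of a group agreed within sampling noise (chi-square per degree of freedom 6.59 to 43.1). Promoters were RefSeq's, GRCh38.p14. The members and lists were chosen with earlier results of these data known, and no list was tested as a set. Values in every library are given for ATF4, for list members with no overlap and for the 4 smallest p of each role group. Of related lists up to 3 genes with the smallest p are named. The values of 1 such gene are not reported here. Python 3.11.15 and scipy 1.17.1 were used.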

Additional observations from a re-analysis of the deposited data

How the results depend on the processing

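None of the 33 tested genes passed under any of the 15 alternatives, and 22 of 33 kept the sign of their difference throughout. The count over all genes was 3. It was 19 with no filter on low values, 1 with a minimum mean of 5 FPKM, 90 with library weights and 1 to 11 without 1 library at a time, 11 being without TIPE2 3. With the replicate number as a block it was 1, and no gene of the list passed. Deviations of same-numbered libraries correlated at -0.23, 0.15 and 0.19, so the numbers were not read as pairing, and not every library correlated best with its own number.

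The eIF2 alpha control median was 0.33 with a minimum mean of 5 FPKM, 0.093 with library weights, and 0.088 to 0.30 without 1 library at a time. The transporter median was -0.21 with library weights. Without 1 library at a time, medians ran from -0.20 to 0.044 for the eIF2 machinery, -0.17 to 0.025 for one-carbon genes, -0.040 to 0.026 for sulfur genes, -0.037 to 0.078 for other unfolded protein response genes, -0.076 to 0.022 for glutamine, aspartate, proline and branched-chain genes, 0.028 to 0.16 for other amino acid transporters and -0.049 to -0.0081 for amino acid sensing. Other amino acid transporters gave no value at a minimum mean of 5 FPKM.

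For 11 of 33 genes the difference changed sign somewhere. With library weights they were 0.079 for CEBPB, 0.058 for PSAT1, 0.25 for PHGDH, -0.055 for SLC7A1, 0.044 for SLC1A4 and -0.070 for SLC38A1. With quantile normalization they were 0.089 for CEBPB, 0.040 for PSAT1 and 0.016 for SLC38A2. Without 1 library at a time they ran from -0.10 to 0.14 for CEBPB, -0.14 to 0.0094 for CEBPG, -0.29 to 0.049 for NUPR1, -0.21 to 0.023 for PSAT1, -0.20 to 0.23 for PHGDH and -0.0082 to 0.054 for ALDH18A1. Likewise they ran from -0.054 to 0.14 for CTH, -0.11 to 0.18 for SLC7A1, -0.11 to 0.017 for SLC1A4, -0.16 to 0.11 for SLC38A1 and -0.18 to 0.050 for SLC38A2. The cause was not tested.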

Other observations

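DDIT4L, which encodes REDD2, the paralogue of the mTORC1 inhibitor encoded by DDIT4, was looked at after the values of DDIT4 were seen. It had 5.03, 4.49 and 3.504 FPKM in TIPE2 1, 2 and 3, against 1.63, 2.66 and 1.53 FPKM in Vector 1, 2 and 3, on 175 to 289 fragments in TIPE2 libraries and 75 to 142 in Vector libraries. Every TIPE2 library was above every Vector library, where DDIT4 had every TIPE2 library below. The log2 difference was 0.87 (standard error 0.18, adjusted p = 0.355 by limma), and it lay between 0.77 and 1.04 without 1 library at a time. It did not pass, and the opposite placing of the paralogues was not tested.

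ASS1, the argininosuccinate synthetase gene, was also picked for its spread between libraries. It had 69.5, 73.4 and 30.1 FPKM in TIPE2 1, 2 and 3, against 72.8, 55.2 and 25.7 FPKM in Vector 1, 2 and 3, so TIPE2 3 and Vector 3 were both low. HSPA5 was high in the same pair of libraries, at 391 FPKM in TIPE2 3 against 303 FPKM in Vector 3.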
